A study of Saccharomyces cerevisiae with 27 samples.

Results

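DRIP-seq of the yeast strain hst34 was set against DRIP-seq of the WT anchor-away strain, both without RNase H, over all 5298 gene intervals of the deposited table. The comparison rests on 4 of the 27 samples of the series, the libraries WT 1, WT 2, hst34 1 and hst34 2. A further 4 libraries, labelled as the same strains and digested with RNase H, serve beside them. Members are all intervals of the table, and none was chosen by its value. Each value is the signal per kb of interval on a log2 scale, with the median interval of its library set to 0, and is called a DRIP level here. Intervals had a median length of 1512 bp, from 168 to 15048 bp, and 5287 of them matched a RefSeq gene.

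R-loops are structures in which RNA pairs with the DNA template strand and leaves the other DNA strand single. They form mainly where transcription is frequent, and RNase H removes them by cutting the RNA strand. DRIP-seq enriches them from purified, restriction-digested DNA with S9.6, an antibody that binds RNA-DNA hybrids. Hst3 and Hst4 are sirtuins, NAD-dependent deacetylases, and remove the acetyl group from lysine 56 of histone H3, a mark of newly made nucleosomes. Their joint loss leaves this mark on chromatin through the cell cycle and is known to cause genome instability.

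The hst34 strain lacks HST4 and carries HST3 fused to FRB, a domain that binds an anchor protein in the presence of rapamycin, so that the fused protein leaves the nucleus. WT is an anchor-away strain with both sirtuins. All cells grew in YPD at 30 °C from an OD of 0.1 to 0.8 and received rapamycin for 3 h before harvest. Genomic DNA, 50 µg per sample, was cut with HindIII, EcoRI, XbaI, SspI and BsrGI with or without 30 U of RNase H. Each group had 2 libraries, and no label says that these were grown apart, so a p-value reflects only the spread between these samples. The comparison addresses whether loss of Hst3 and Hst4 changes RNA-DNA hybrids over genes.

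The library WT 2 stood apart from the other 3, and for this reason WT 1 and WT 2 are mostly shown separately. A difference given with ± is from the mean of both WT libraries, and can rest mainly on WT 2. Its reads in intervals numbered 83303106, against 2951246 in WT 1, 1265755 in hst34 1 and 1171635 in hst34 2. Its levels were also more widely spread, with an interquartile range of 2.48 log2 units against 0.93 in WT 1, 1.04 in hst34 1 and 1.10 in hst34 2. In WT 2, 20.3% of intervals lay more than 2 log2 units below the median, against 0.19% in WT 1. Across all 5298 intervals the Pearson correlation of WT 1 was 0.70 with WT 2, 0.88 with hst34 1 and 0.85 with hst34 2. WT 2 was instead almost a copy of its RNase H counterpart, with a correlation of 0.99 over the same intervals, although the pair differed by more than counting error. These correlations are descriptions, since all points of a pair share their libraries. The difference in interquartile range between the strains, hst34 minus WT, was -0.64 log2 units. Its exact two-sided permutation p was 1, and 2 libraries against 2 allow none under 0.33.

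**Figure D1:**
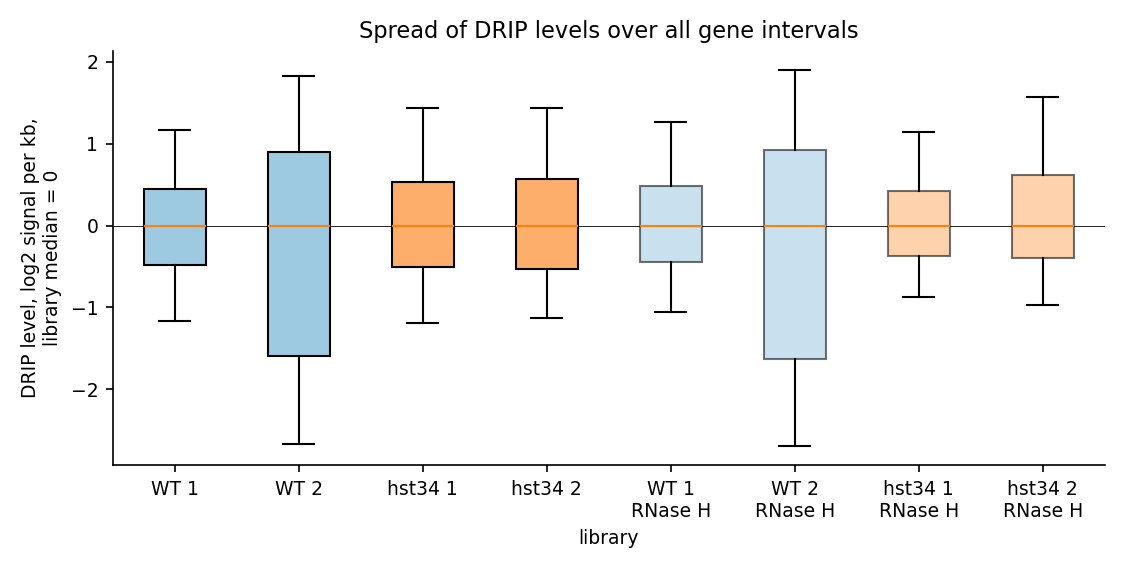
DRIP level (log2 signal per kb, library median at 0) in each of the 8 libraries. Boxes span the quartiles, the line is the median and whiskers reach the 5th and 95th percentiles over 5298 intervals. WT 2 and its RNase H counterpart, with interquartile ranges of 2.48 and 2.55, are wider than the other 6 libraries.

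Interval length separated WT 2 from the rest. In the shortest length decile, with a median of 584 bp, the median DRIP level was -1.45 in WT 2, 0.02 in WT 1, 0.08 in hst34 1 and -0.01 in hst34 2. In the longest decile it was 0.35 in WT 2, 0.07 in WT 1, 0.06 in hst34 1 and 0.13 in hst34 2. Of these 4 libraries, short genes were thus low in WT 2 alone, and hst34 minus WT 2 had a Spearman correlation with length of -0.23 over 5298 intervals, against -0.03 for hst34 minus WT 1. What sets WT 2 apart was not tested.

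**Figure D2:**
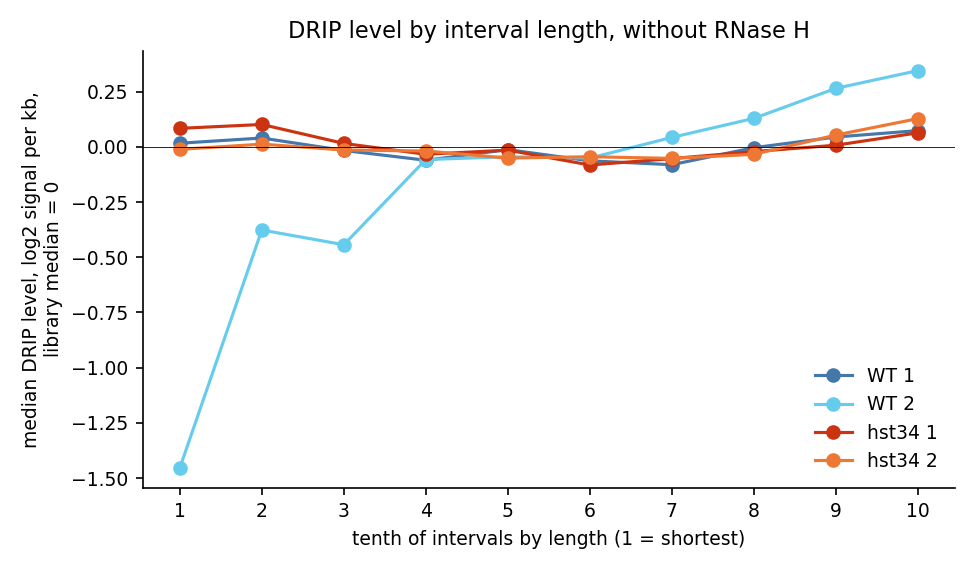
Median DRIP level (log2 signal per kb, library median at 0) of each length decile, shortest at the left, in the 4 libraries without RNase H. WT 1, hst34 1 and hst34 2 stay close to 0 in every decile, whereas WT 2 runs from -1.45 to 0.35.

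HST4 (YDR191W, sacCer3 chromosome IV, 842301 to 843469, an interval a little longer than the open reading frame) is the gene that the labels give as deleted. Its signal per kb was 87.6 in WT 1 and 62.0 in WT 2, against 13.1 in hst34 1 and 45.5 in hst34 2. Both libraries labelled hst34 were thus below both WT libraries, with a log2 difference of -1.11 ± 0.52 (limma standard error, n = 2 per strain, adjusted p = 0.862). They were not at 0, with 21 and 69 reads. With RNase H the signal per kb was 45.7 and 50.3 in WT and 68.4 and 85.2 in the libraries labelled hst34. The HST4 signal therefore goes against the deletion in the labels for the hst34 libraries with RNase H, and is lower than in WT, but present, for those without. In RNA-seq libraries labelled WT and hst34 the HST4 signal ran the way the labels say, with 92.5 and 93.3 in WT and 9.69 and 0.726 in hst34. Every difference called hst34 minus WT here is one between libraries that carry those labels. HST3 (YOR025W), the fused gene, is present in both strains and had levels of 1.00 and -1.93 in WT and 1.53 and 1.43 in hst34. FPR1 (YNL135C), whose product binds rapamycin, had levels of -0.97 and 0.21 in WT and -1.40 and -0.70 in hst34, overlapping between strains.

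No gene interval differed between the strains by the test. With limma fitted over all 5298 intervals and the 8 DRIP libraries, and Benjamini-Hochberg adjustment at 0.05, 0 intervals (0%) were higher in hst34 and 0 (0%) were lower, and the smallest adjusted p was 0.862. At an unadjusted p under 0.05, limma had 83 intervals higher (1.57%) and 19 lower (0.359%). The median standard error of a difference was 0.46 log2 units. No interval passed under any of the 19 alternative fits either, WT 2 left out included. The members below are therefore described by their values in each library.

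Both hst34 libraries lay above both WT libraries in 1074 intervals (20.3%) and below both in 646 (12.2%). With the values as deposited, not centred, the split turned, with 565 above and 1254 below, and after quantile normalization it was nearly even, with 902 above and 930 below. Against WT 1 alone, both hst34 libraries were above in 35.8% of intervals and below in 26.8%. Against WT 2 alone the shares were 48.6% and 41.4%. A mean of hst34 at least 1 log2 unit above WT 1 was found in 62 intervals (1.17%), and at least 1 unit below in 15 (0.283%). The same distance from WT 2 was reached by 1548 intervals upward (29.2%) and 534 downward (10.1%), so distances of this size were more often from WT 2.

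The 10 intervals with the largest higher mean in hst34, among those with at least 50 reads in each of the 4 libraries and no overlap between strains, were CCW12, URA3, TDH3, HYP2, PDC1, RPP1A, RPL8B, RPL41A, RPL5 and RPP2B. All but URA3 belong to the decile of intervals with the most WT RNA. They code for the main products of a fast-growing cell, namely glycolytic enzymes, ribosomal proteins, a translation factor and a cell wall protein. None passed the test.

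CCW12 (YLR110C, chromosome XII, 369549 to 370157), a covalently linked mannoprotein of the cell wall, had the largest difference. Its signal per kb was 144 in WT 1, 8.59 in WT 2, 639 in hst34 1 and 775 in hst34 2. Both hst34 libraries exceeded both WT libraries, and their mean lay 2.42 log2 units above WT 1 and 5.16 above WT 2. The difference from the WT mean was 3.79 ± 1.51 (limma, n = 2 per strain, adjusted p = 0.862).

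TDH3 (YGR192C, chromosome VII, 882719 to 883903) codes for the main glyceraldehyde-3-phosphate dehydrogenase of glycolysis. Its signal per kb was 237 in WT 1, 32.3 in WT 2, 966 in hst34 1 and 912 in hst34 2. The hst34 libraries lay close together, and their mean was 2.15 log2 units above WT 1 and 4.42 above WT 2. PDC1 (YLR044C, chromosome XII, 232285 to 234213), pyruvate decarboxylase of alcoholic fermentation, had levels of 1.10 and -1.51 in WT and 2.68 and 2.81 in hst34. HYP2 (YEL034W, chromosome V, 85593 to 86361), the translation factor eIF5A, had levels of -0.10 and -2.49 in WT and 1.69 and 2.07 in hst34. In all 3 genes the gap between the strains was wider than the distance between the hst34 libraries and narrower than that between WT 1 and WT 2.

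Among ribosomal proteins, RPP1A (YDL081C, chromosome IV, 309717 to 310213), an acidic protein of the ribosomal stalk, had levels of -1.10 and -2.46 in WT and 1.26 and 0.81 in hst34. RPL8B (YLL045C) had levels of -1.40 and -2.90 in WT and 0.66 and 0.64 in hst34, so it was under the median interval in both WT libraries and over it in both hst34 libraries. RPL41A (YDL184C) had -0.08 and -1.85 in WT and 1.63 and 1.95 in hst34. RPL5 (YPL131W), which carries 5S rRNA into the large subunit, lay 1.64 log2 units above WT 1 in hst34 and 3.75 above WT 2. RPP2B (YDR382W), another stalk protein, lay 1.30 and 3.73 above them. Reads that fit both RPL8B and RPL8A, RPL41A and RPL41B, or TDH3 and TDH2 can be placed on either copy, so values of such copies are uncertain.

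URA3 (YEL021W, chromosome V, 116121 to 117049), which codes for an enzyme of uracil synthesis and is a common selection marker, was the exception in RNA level, at the 77.9th percentile of WT RNA. Its signal per kb was 707 in WT 1, 11.8 in WT 2, 1574 in hst34 1 and 1333 in hst34 2. The mean of its hst34 libraries thus stood 1.24 log2 units above WT 1 and 5.97 above WT 2.

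A rule that is less moved by WT 2, the width of the gap between the lower hst34 library and the higher WT library, was added after the values were seen. The gap was at least 1 log2 unit in 32 intervals upward and in 1 downward. The 15 widest upward gaps among intervals with at least 50 reads per library all fell in the highest RNA decile. They were led by CCW12 with 2.26, TDH3 with 2.14, RPL8B with 2.04 and RPP1A with 1.91 log2 units, and also held RPS2, GPM1, HSP150, RPS1B, ERG28, RPL15A and RPL32. RPS2 (YGL123W), of the small ribosomal subunit, was among them. Its levels were 0.29 and -0.75 in WT and 1.94 and 1.85 in hst34, a difference of 2.13 ± 0.53 (limma, n = 2 per strain, unadjusted p = 0.00415, adjusted p = 0.862). GPM1, phosphoglycerate mutase, had levels of 0.01 and -1.78 in WT and 1.52 and 1.63 in hst34. HSP150, a secreted cell wall protein, had -1.37 and -2.73 in WT and 0.00 and -0.01 in hst34. ERG28, which tethers enzymes of ergosterol synthesis, had -1.43 and -2.25 in WT and -0.13 and 0.20 in hst34.

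The 10 intervals with the largest lower mean in hst34, by the same rule, differed by less, from -1.12 to -1.30 log2 units, and none was in the highest RNA decile. They were MRP21, MSS2, OSW2, YPD1, DSS4, VPS68, HIS7, HRT3, PAN6 and MNS1. MRP21 (YBL090W), of the small mitochondrial ribosomal subunit, had levels of 0.77 and 1.94 in WT and 0.06 and 0.05 in hst34. MSS2 (YDL107W), needed to export part of Cox2 across the inner mitochondrial membrane, had 0.07 and 0.99 in WT and -0.67 and -0.85 in hst34. HIS7 (YBR248C), an enzyme of histidine synthesis, had 0.18 and 0.95 in WT and -0.53 and -0.64 in hst34. In these 3 genes the hst34 libraries nearly coincided, whereas WT 2 was well above WT 1.

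YPD1 (YDL235C), the phosphorelay protein upstream of the Hog1 pathway, had a difference of -0.32 log2 units between hst34 and WT 1 and of -2.24 between hst34 and WT 2. VPS68, which acts in vacuolar protein sorting, had a level of 0.82 in hst34 1, against 0.84 in WT 1, and of -0.35 in hst34 2. PAN6, of pantothenate synthesis, had -0.05 in WT 1, -1.12 in hst34 1 and -0.08 in hst34 2. The lower mean of YPD1 thus rested mainly on WT 2. VPS68 and PAN6 differed from WT 1 by -0.61 and -0.54, and there 1 hst34 library was close to WT 1 and the other well below. The interval with the widest downward gap was CWC24 (YLR323C), a splicing factor, with 0.04 and 0.09 in WT and -0.99 in hst34 1, with hst34 2 nearly the same. UME1, a subunit of the Rpd3 histone deacetylase complex, had -0.12 and 0.05 in WT and -1.15 and -0.94 in hst34. In CWC24 and UME1 the libraries of each strain lay close together, and both genes were picked after their values were seen.

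**Figure D3:**
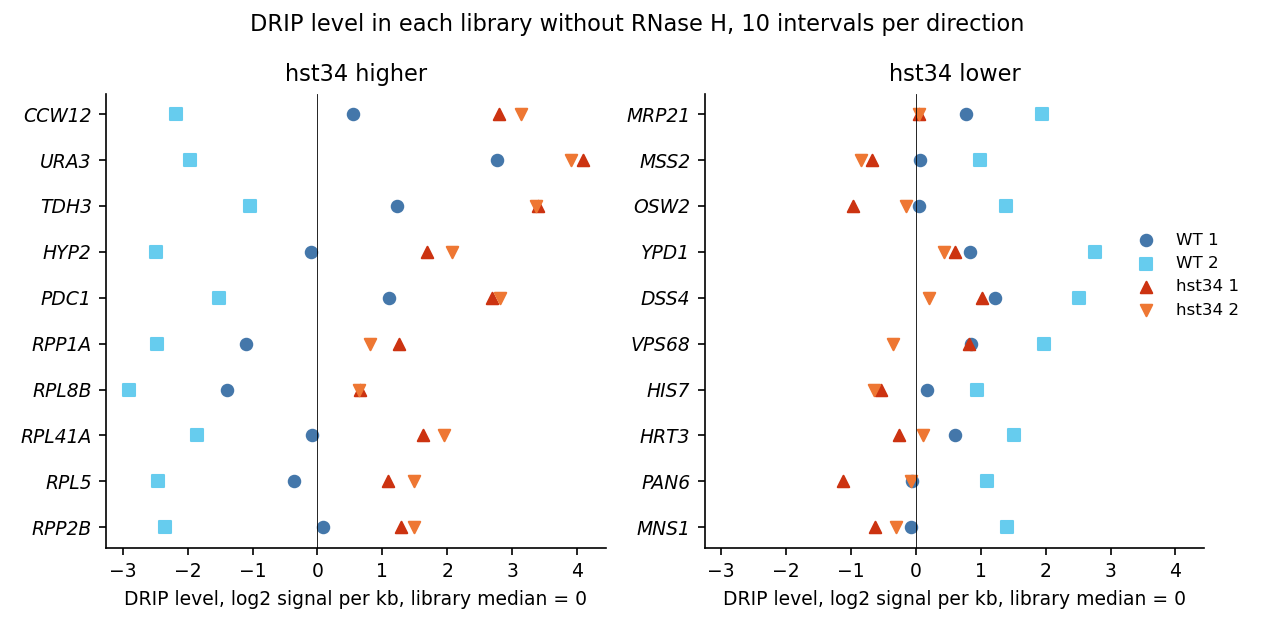
DRIP level (log2 signal per kb, library median at 0) of the 10 intervals with the largest higher and the 10 with the largest lower mean in hst34, 1 marker per library without RNase H. On the left WT 2 is far below WT 1 for every gene and both hst34 libraries are right of WT 1; on the right WT 2 is the highest library.

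The difference of hst34 from WT was largest at the genes with the most RNA. RNA is the mean deposited RNA-seq signal of the WT libraries, scaled to added S. pombe cells and to length, and 5297 intervals have it. In the 6 lowest deciles the median of hst34 minus WT 1 stayed between -0.06 and 0.01 log2 units. It was 0.02 in decile 7, 0.05 in decile 8, 0.14 in decile 9 and 0.38 in decile 10. Against WT 2 the medians of the 6 lowest deciles lay between -0.17 and -0.02 and did not rise with RNA, and the last 4 were 0.18, 0.19, 0.25 and 0.88. Both WT libraries thus gave their highest median in the same 530 intervals, though of different size.

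In decile 10, both hst34 libraries were above both WT libraries in 306 of 530 intervals (57.7%) and below both in 8 (1.51%). In decile 1 the counts were 63 above (11.9%) and 80 below (15.1%). Each hst34 library gave the decile 10 difference, with medians of 0.37 and 0.41 against WT 1. Within decile 10 the median against WT 1 was larger the higher the RNA, from 0.24 in the 265 intervals between the highest 5% and 10%, to 0.49 in the 212 between 1% and 5%, and 1.01 in the highest 53. In these 53, both hst34 libraries were above WT 1 in all, and their mean was above it by 0.33 (ACT1, actin) to 2.42 log2 units (CCW12). They were above both WT libraries in 49 (92.5%). The median level of the 53 was 0.89 in WT 1, -0.10 in WT 2, 1.63 in hst34 1 and 1.95 in hst34 2.

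Across all 5297 intervals the Spearman correlation of WT RNA with hst34 minus WT 1 was 0.29, and with hst34 minus WT 2 it was 0.19. RNA correlated with the DRIP level itself by 0.16 in hst34 1 and 0.15 in hst34 2, against 0.04 in WT 1 and -0.05 in WT 2. These are correlations over intervals of the same libraries and carry no test. The RNA difference between the strains did not run in the same direction, with a Spearman correlation of -0.13 with hst34 minus WT 1. Median RNA log2 change in decile 10 was -0.09. For RNA changes each library was centred on its median gene, so a shift shared by all genes would not show.

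The decile 10 difference from WT 1 was present at each length. The median of hst34 minus WT 1 was 0.51 in the 177 shortest intervals of that decile, 0.42 in the 176 of middle length and 0.32 in the 177 longest. Against WT 2 the medians were 1.65, 0.76 and 0.61, so the dependence on length was larger there. In the other 9 deciles the medians against WT 1 were -0.0022, 0.0061 and 0.02 from short to long. DRIP reads here carry no strand, and 1870 intervals (35.3%) overlap another, so reads in shared bases belong to either gene. Among decile 10 the 398 intervals without an overlap had a median of 0.38 against WT 1, and the 132 with one had 0.40.

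**Figure D4:**
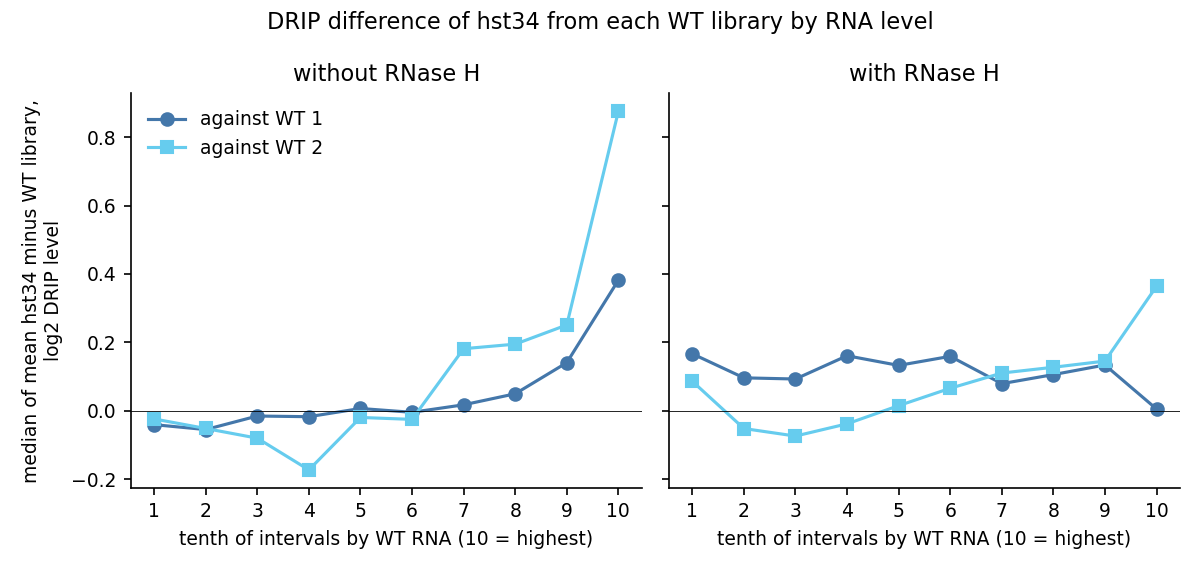
Median over intervals of the mean hst34 level minus the level of each WT library (log2 DRIP level), by decile of WT RNA, without RNase H at the left and with RNase H at the right. Without RNase H both curves are highest in decile 10, at 0.38 and 0.88; with RNase H the curve against WT 1 ends at 0.01 and that against WT 2 at 0.36.

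The gene lists overlap the RNA deciles. All their counts are read against the background of 20.3% of intervals above and 12.2% below, and no member of any list passed the adjusted test. Of 135 cytosolic ribosomal protein genes, 97 (71.9%) had both hst34 libraries above both WT libraries and 0 had both below, with medians of 0.64 against WT 1 and 0.97 against WT 2. The median level of the list was 0.49 in WT 1, 0.26 in WT 2, 1.14 in hst34 1 and 1.23 in hst34 2. Its members ran from RPL35B, at -0.39 ± 0.43 from the WT mean, to RPP1A at 2.82 ± 0.93 (limma, n = 2 per strain). Since 130 of the 135 are in RNA decile 10, the 400 other intervals of that decile give the comparison: 212 of them (53.0%) were above both WT libraries, with a median of 0.32 against WT 1.

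Of 24 translation factors, 18 (75.0%) had both hst34 libraries above both WT libraries and 0 below, with medians of 0.41 against WT 1 and 1.28 against WT 2. TEF1, elongation factor 1A, had levels of 0.25 and -2.27 in WT and 1.43 and 1.01 in hst34, and its near-identical copy TEF2 had 0.58 and -0.10 in WT and 1.19 and 1.14 in hst34. Reads that fit both TEF1 and TEF2 can be placed on either copy, so their separate values are uncertain. YEF3, elongation factor 3, had 1.57 and 1.42 in WT and 2.52 and 2.48 in hst34, and is a gene where WT 1 and WT 2 were close. The lowest member was TIF5, eIF5, at -0.08 ± 0.44.

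Of 21 genes of glycolysis and fermentation, 14 (66.7%) were above both WT libraries and 0 below, with medians of 0.53 and 1.23. CDC19, pyruvate kinase, had levels of 1.57 and -0.52 in WT and 2.80 and 2.61 in hst34. ENO2, enolase, had 2.08 and 1.51 in WT and 3.05 and 2.88 in hst34. PGK1, phosphoglycerate kinase, had 0.41 and 0.82 in WT and 1.39 and 1.59 in hst34, a higher value in WT 2 than in WT 1. In ENO2 and PGK1 the WT libraries differed by under 1 log2 unit and both hst34 libraries still lay above them. The lowest member was HXK1, hexokinase 1, at -0.11 ± 0.36.

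Among 11 histone and histone variant genes, 6 (54.5%) were above both WT libraries and 0 below. The medians were 0.45 against WT 1 and 1.58 against WT 2, a list whose genes are short and low in WT 2. HHF1, histone H4, had levels of 0.51 and 0.77 in WT and 1.39 and 1.44 in hst34. HHT1, histone H3, had -0.68 and -2.62 in WT and -0.46 and 0.26 in hst34. HHF2 was the highest member, at 1.61 ± 0.97, and HTA1 the lowest, at 0.01 ± 0.77.

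Chaperones had 16 of 29 above both WT libraries (55.2%) and 1 below, with a median of 0.29 against WT 1, and ran from AHA1 at -0.26 ± 0.52 to HCH1 at 1.62 ± 0.97, both cochaperones of Hsp90. Ribosome assembly factors had 26 of 71 above (36.6%) and 0 below, with a median of 0.16, from NOP10 at -0.93 ± 0.96 to NOP1, fibrillarin, at 1.48 ± 0.76. Respiratory chain and ATP synthase genes had 15 of 39 above (38.5%) and 1 below, with a median of 0.22, from ATP20 at -0.68 ± 0.77 to ATP15 at 1.60 ± 1.09. Wall protein genes had 12 of 35 above (34.3%) and 5 below, from TIR3 at -0.84 ± 0.54 to CCW12. Amino acid synthesis genes had 18 of 60 above (30.0%) and 4 below, from HIS7 to ARO4 at 1.77 ± 0.87. The phosphate regulon had 6 of 19 above (31.6%) and 2 below, from PHM6 at -0.88 ± 0.70 to PHO84, the high-affinity phosphate transporter, at 2.42 ± 1.02. Proteasome genes had 9 of 33 above (27.3%) and 1 below, from PRE4 at -0.63 ± 0.62 to PUP1 at 1.91 ± 1.06. PMA1, the proton pump of the plasma membrane, is in none of these lists and had 1.48 and 0.74 in WT and 2.50 and 2.50 in hst34.

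In the remaining lists the share above both WT libraries ran from 8.57% to 33.3%. The list of mitochondrial ribosomal proteins was taken by gene name, which does not establish that each member, MRP8 included, is one. It had 9 of 55 above (16.4%) and 8 below, with a median of -0.05 against WT 1 but 0.66 against WT 2. The list ran from MRP10 at -1.38 ± 0.68 to MRP8 at 1.77 ± 0.78. General stress genes had 3 of 35 above (8.57%) and 6 below, with a median of -0.09 against WT 1, from SPI1 at -0.69 ± 0.52 to SIP18 at 1.40 ± 0.92. Meiosis genes had 4 of 27 above (14.8%) and 7 below, from ZIP2 at -0.97 ± 0.63 to REC8 at 1.18 ± 0.82. Replication fork and helicase genes had 4 of 40 above (10.0%) and 8 below, from ORC3 at -0.90 ± 0.76 to RAD27 at 1.47 ± 1.12. RAD27 was 0.10 above WT 1 and 2.83 above WT 2, and its libraries overlapped between strains. Cyclin and cell cycle genes had 3 of 24 above (12.5%) and 2 below, from CLB5 at -0.86 ± 0.69 to CLB3 at 1.14 ± 0.77. CLB3 was 0.26 above WT 1 and 2.03 above WT 2. DNA damage and ribonucleotide reductase genes had 5 of 25 above (20%) and 4 below, from RAD55 at -0.87 ± 0.50 to SML1 at 1.68 ± 0.87.

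RNA polymerase subunits had 8 of 31 above (25.8%) and 2 below, from RPC17 at -0.81 ± 0.59 to RPB10 at 1.34 ± 0.79. Nitrogen catabolite genes had 6 of 26 above (23.1%) and 2 below, from PUT1 at -0.54 ± 0.45 to DAL3 at 1.06 ± 0.75. Galactose and maltose genes, which are repressed in glucose, had 2 of 12 above (16.7%) and 2 below, from GAL7 at -0.72 ± 0.59 to GAL1 at 1.03 ± 0.52. Hexose transporters had 3 of 9 above (33.3%) and 0 below, from HXT4 at -0.16 ± 0.31 to HXT8 at 0.73 ± 0.54. HXT8 was 0.06 above WT 1 and 1.41 above WT 2. Seripauperin and other subtelomeric genes had 1 of 7 above (14.3%) and 0 below, from AAD14 at -0.40 ± 0.38 to PAU17 at 1.04 ± 0.79.

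Genes that act on hybrids or on H3K56 acetylation belong to the remaining lists too. Of 42 genes of RNase H, THO and hybrid control, 8 (19.0%) were above both WT libraries and 8 below, from SUS1 at -0.64 ± 0.51 to MFT1 at 1.60 ± 1.11. MFT1 was 0.26 above WT 1 and 2.93 above WT 2, and its libraries overlapped between strains. RNH1, a yeast RNase H, had levels of 0.96 and 1.24 in WT and 0.83 and 0.70 in hst34. RNH201, the catalytic subunit of RNase H2, had -0.76 and -0.65 in WT and -0.78 and -0.87 in hst34. Of 28 genes of sirtuins, H3K56 acetylation and nucleosome assembly, 7 (25%) were above and 4 below, from HST4 to HST3. RTT109, the acetyltransferase of H3K56, had 0.35 and 1.65 in WT and 0.12 and 0.35 in hst34. ASF1, the histone chaperone it works with, had 0.74 and 0.23 in WT and 1.02 and 0.78 in hst34.

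**Figure D5:**
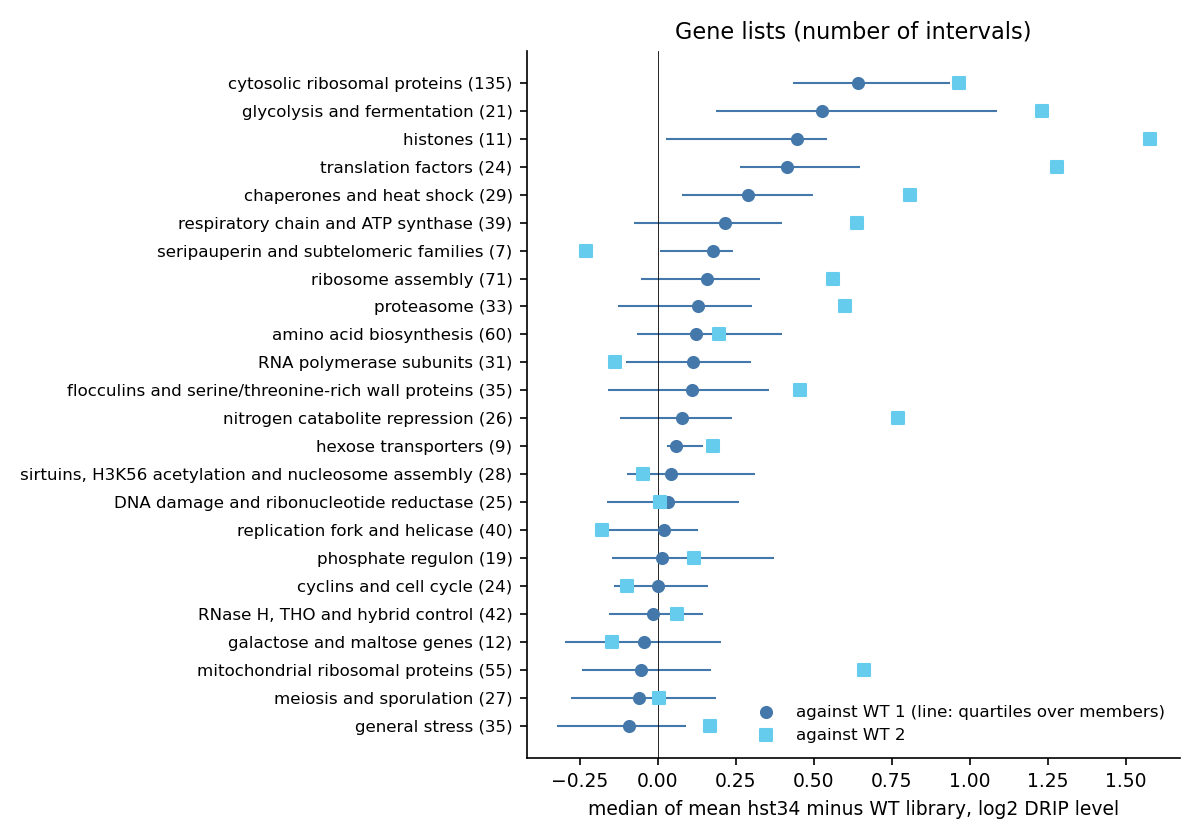
Median over list members of the mean hst34 level minus WT 1 (circles, with a line from the lower to the upper quartile of members) and minus WT 2 (squares), in log2 DRIP level without RNase H. Cytosolic ribosomal proteins, glycolysis, histones and translation factors lead against WT 1, at 0.64, 0.53, 0.45 and 0.41, and most other lists sit near 0 against WT 1.

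Digestion with RNase H is used to remove hybrids and so to give the background of the assay. Levels did not fall at most intervals, however. WT 1 with RNase H was below WT 1 in 43.7% of all intervals, and WT 2 with RNase H below WT 2 in 44.7%. Since each library is centred, a fall shared by all intervals would not show. Whether the digested libraries hold only background was not tested. The difference between the strains without RNase H minus that with RNase H had 0 intervals (0%) past the adjusted limma test, with 65 higher (1.23%) and 5 lower (0.0944%) at an unadjusted p under 0.05. After RNase H both hst34 libraries were above both WT libraries in 1081 intervals (20.4%) and below both in 717 (13.5%), close to the shares without the enzyme. In RNA decile 10 the median of hst34 minus WT 1 was 0.38 without and 0.01 with RNase H, and that of hst34 minus WT 2 was 0.88 without and 0.36 with it. For the cytosolic ribosomal proteins the medians with RNase H were -0.07 and 0.22, and 16 of 135 (11.9%) were above both WT libraries. The WT libraries numbered 2 stand apart with and without the enzyme, and the hst34 libraries with RNase H are those whose HST4 signal goes against their label.

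The Pearson correlations of hst34 1 and hst34 2 with the RNase H libraries of the same number were 0.59 and 0.70. With WT 1 they were 0.88 and 0.85, so the counts that follow hold any other difference between the libraries too. Among libraries labelled hst34, both RNase H libraries were below both libraries without it in 1206 of 5298 intervals (22.8%) and above both in 1675 (31.6%). In RNA decile 10 they were below in 256 of 530 (48.3%) and above in 43 (8.11%), and in the 53 intervals with the most RNA below in 41 (77.4%) and above in 0. The WT counts set 1 library against 1, a looser rule than both below both, and are not comparable in size. In decile 10, WT 1 with RNase H was below WT 1 in 261 of 530 intervals (49.2%), and WT 2 with RNase H was below WT 2 in 266 (50.2%). WT 1 with RNase H was below WT 1 in 23 of the 53 (43.4%), against 43.7% of all intervals, and WT 2 with RNase H was below WT 2 in 34 (64.2%), against 44.7%.

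At several of the leading genes WT 1 was higher with RNase H than without. CCW12 had a level of 0.55 in WT 1 and 2.81 with RNase H, which equals the 2.81 of hst34 1 without it. TDH3 went from 1.23 to 2.92, HYP2 from -0.10 to 1.73 and PDC1 from 1.10 to 2.23. In hst34, TDH3 had 1.66 and 3.19 with RNase H, and CCW12 had 1.54 and 2.55, both lower than the 3.39 and 3.37 or 2.81 and 3.13 without. For these genes the distance of hst34 from WT 1 thus holds against the library without RNase H and is smaller against the one with it. RPS2 had 0.49 in WT 1 with RNase H, against 0.29 without it and 1.94 and 1.85 in hst34 without. WT 1 with RNase H was above both hst34 libraries without it in 0 of the 53 intervals with the most RNA, in 63 of the 530 of decile 10 (11.9%) and in 1797 of all 5298 (33.9%). RPL41B, another ribosomal protein gene, had 2.59 and 1.32 in WT and 3.73 and 3.30 in hst34. After RNase H it had 1.43 and 1.23 in hst34, lower than either library without. In WT 1 it was higher after RNase H, at 3.07, and in WT 2 it was 1.19.

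Intervals with DNA breaks or near chromosome ends were not more often higher in hst34 than the rest. Break-seq, which captures DNA ends, gave 239 peaks in the authors' list of hst34 against WT, and 542 intervals hold at least 1. Of these, 88 (16.2%) had both hst34 DRIP libraries above both WT libraries, against 986 of the 4756 others (20.7%), and the medians against WT 1 were 0.00 and 0.04. In RNA decile 10 the 31 intervals with a peak had 12 above (38.7%) and a median of 0.25, against 294 of 499 (58.9%) and 0.40 without. The 63 intervals within 10 kb of the start of their chromosome or of the end of its last interval had 5 above (7.94%) and 6 below. Their median was 0.02 against WT 1. Over all intervals, 20.3% were above and 12.2% below. Among the 80 intervals whose RNA was at least 0.5 log2 units higher in hst34, 21 (26.2%) were above both WT libraries, with a median of 0.05 against WT 1. Among the 17 whose RNA was at least 1 log2 unit lower, 5 (29.4%) were above both, with a median of 0.14. In the 5120 intervals with an RNA change within 0.5 log2 units, 1032 (20.2%) were above both, with a median of 0.03. These shares were not tested against each other.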

How the data were processed

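DRIP-seq was compared over 8 libraries, 2 for each strain and RNase H treatment. Reads were 75 bp, paired, after 13 PCR cycles, per the labels' protocols. The submitters' processing notes name Bowtie2, bedtools and the build sacCer3; filters and settings were not stated there. The deposited DRIP signal is the read number per gene interval times 1 constant per library: dividing by the largest step shared by all values of a library gave whole numbers, within 0.01, for 100% of values. This step was taken as 1 read, although in 7 of 8 libraries no interval holds exactly 1, so all read numbers rest on that inference. Without molecular identifiers, read numbers speak for counting error alone. The RNA signal was normalised to S. pombe and to length, per the deposited table's title; peaks come from the authors' MACS list.

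The signal was divided by interval length in kb and taken as log2(value + 10.96), where 10.96 is the 5th percentile of positive values, so differences of low intervals are understated. Each library was centred on its median. limma 3.58.1 (R 4.3.3) with a trend was fitted to all 5298 intervals over the 8 libraries, with Benjamini-Hochberg adjustment at 0.05. Each ± is its standard error, from a variance pooled over the 4 groups of libraries. The deviations of the WT libraries with and without RNase H correlated by 0.94, which this fit does not allow for. RNA values used the mean of the WT libraries for deciles. RNA changes used a pseudocount of 58.8 and log2 signals centred on the median of each library, which removes the scale set by S. pombe.

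Named genes were those past the test, or, where fewer passed, the 10 largest differences per direction among intervals with at least 50 reads in each of the 4 libraries and no overlap between strains, plus HST3, HST4, FPR1 and the highest and lowest member of each of 24 lists. Others are examples picked after their values were seen. Members and lists were chosen with earlier results of these data known. Alternatives were another scaling, pseudocount and filter, fewer libraries, no trend, a replicate block and library weights. Count-based tests were planned and not run, since read numbers are inferred. NET-seq is not analysed here.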

Additional observations from a re-analysis of the deposited data

How the results depend on the processing

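Under all 19 alternative fits, 3 of them added after the data were seen, limma called 0 intervals higher and 0 lower in hst34, and the 17 that could give it called 0 for the difference with RNase H. Before adjustment the higher intervals ranged from 13 without WT 2 to 511 without WT 1. The libraries' numbers share no stated origin, and their deviations correlated by 0.12 to 0.25, except 0.94 for WT with and without RNase H; with the replicate block the calls were 0, with 237 higher and 109 lower before adjustment. Intervals with both hst34 libraries above both WT libraries, 1074, became 565 as deposited, 702 without the lowest 25% of intervals and 1608 to 2574 when 1 library was left out; those below, 646, became 1254 as deposited and 1111 to 2191. Fewer libraries leave fewer to exceed, and without the filtered intervals fewer were tested. The median of hst34 minus WT in RNA decile 10, 0.67, was 0.28 with 10 times the pseudocount and 0.38 without WT 2. The difference in interquartile range ran from -1.41 without WT 1 to 0.14 without WT 2. Of 94 named intervals, 11 changed sign in some fit. When 1 library was left out, AHA1 ran from -0.72 to 0.20, PRE4 from -1.57 to 0.30, HXK1 from -0.39 to 0.17, NOP10 from -1.98 to 0.11, HXT4 from -0.35 to 0.031, ORC3 from -1.93 to 0.13, AAD14 from -0.84 to 0.051, ATP20 from -1.43 to 0.072, TIF5 from -0.22 to 0.058, CLB5 from -1.76 to 0.047 and HTA1 from -0.37 to 0.38. In each the end above 0, or below 0 for HTA1, is that without WT 2, also with its RNase H counterpart left out. HTA1 was -0.081 as deposited, -0.00044 after quantile normalization and -0.029 with 10 times the pseudocount, and HXK1 was 0.020 after quantile normalization. The causes were not tested. The planned count-based alternatives were not run. Depth limits the 7 shallower libraries, with a median of 135 to 437 reads per interval.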

Other observations

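In hst34, URA3, LEU2 and HST3 were not lower after RNase H, while RPL41B and RPS12 were; all 5 were picked after their values were seen. URA3 had a signal per kb of 1574 and 1333 in hst34 without RNase H and of 1957 and 2733 with it. LEU2, an enzyme of leucine synthesis and a common selection marker, had 664 and 731 without and 919 and 1531 with it. HST3 had 258 and 230 without and 425 and 582 with it. In the same libraries RPL41B went from 1224 and 870 to 296 and 223, and RPS12, of the small ribosomal subunit, from 734 and 622 to 238 and 187. With RNase H, RPL41B went from 629 to 944 in WT 1 and from 211 to 187 in WT 2. RPS12 went from 365 to 304 in WT 1 and from 268 to 259 in WT 2. In WT 2, URA3 was at 11.8 and HST3 at 12.3, against 707 and 201 in WT 1, while RPS12 was at 268 against 365.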
